A study of Mus musculus with 32 samples.

Results

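The genes described here encode subunits of the 4 respiratory chain complexes and of ATP synthase (complex V) that are carried in the nucleus. They were chosen by name alone: Nduf genes of the a, b, c, s and v series for complex I, the Sdh genes for complex II, the Uqcr genes for complex III, the Cox genes of the widely expressed isoforms for complex IV, and all Atp5 names for complex V. The rule took 76 of the 46517 gene names in the table, with 36 in complex I, 4 in complex II, 8 in complex III, 11 in complex IV and 17 in complex V. Another 4 names that end in ".ps" were left out, and none of them exceeded 8.14 TPM in any library. A few names need a remark. Atp5s and Atp5sl, which RefSeq lists as Dmac2l and Dmac2, are not ATP synthase subunits in spite of their names. Ndufa4 carries a complex I name and is known to belong to complex IV. Cox7a2l resembles the complex IV subunit Cox7a2, but the long form of its protein is known to join complexes III and IV into supercomplexes.

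RNA was sequenced in bulk from Pmel CD8+ T cells, which carry a transgenic receptor for a melanocyte antigen, in 8 groups of 4 libraries. All samples are labelled C57BL/6, melanoma-associated vitiligo and an age of 16 weeks. The groups are naive cells from the spleen, tumor-draining lymph node cells on day 12, tumor-infiltrating cells, memory cells of the lymph node, and cells of spleen, skin, lung and liver. The design text describes the lymph node, skin, lung and liver cells as CD8+Thy1.1+ and as taken 45 days after tumor surgery. The sources used here do not say when the naive, spleen and tumor cells were taken, or how Pmel cells came to be in the mice. Nor do they state that each sample came from its own animal, so the spread behind the p-values may be technical. Lung and liver cells passed a Percoll gradient and skin was digested with collagenase, so tissue and handling cannot be told apart.

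The respiratory chain passes electrons from NADH (at complex I) and succinate (at complex II) through complex III to complex IV, which reduces oxygen. Complexes I, III and IV pump protons, and ATP synthase uses the resulting gradient to make ATP. All 4 subunits of complex II are nuclear, while the other complexes also need subunits encoded in mitochondrial DNA. In CD8+ T cells, mitochondrial mass and respiration are known to grow with activation, and oxidative metabolism is known to matter for memory cells.

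Promoters of these genes are known to hold sites of NRF1, ETS factors, YY1 and estrogen-related receptors (ERR). RefSeq windows of 300 bases, from 250 before to 50 after the start of transcription (GRCm38.p6), were listed for 65 of the 76 genes. The windows below belong to the genes on which the results turn: Cox5a and Atp5g3 rose most firmly on day 12, Sdhb was called in 3 comparisons, and Cox7a2l was the one that fell. They are written on the strand of the gene. Capitals mark TGACCTTGA, the reverse complement of the ERR motif TCAAGGTCA, in Atp5g3 and GCATGCGC, the reverse complement of the NRF1 motif GCGCATGC, in Sdhb. The other 2 windows held none of the motifs searched. Cox5a is chr9:57520982-57521281 on the plus strand, Atp5g3 chr2:73911277-73911576 on the minus strand, Sdhb chr4:140961021-140961320 on the plus strand and Cox7a2l chr17:83514284-83514583 on the minus strand.
Cox5a: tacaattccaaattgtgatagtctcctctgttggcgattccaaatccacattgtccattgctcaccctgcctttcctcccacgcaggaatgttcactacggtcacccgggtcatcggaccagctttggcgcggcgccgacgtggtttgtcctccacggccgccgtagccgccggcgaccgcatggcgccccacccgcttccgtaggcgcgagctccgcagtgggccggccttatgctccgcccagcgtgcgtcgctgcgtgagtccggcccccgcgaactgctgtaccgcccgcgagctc
Atp5g3: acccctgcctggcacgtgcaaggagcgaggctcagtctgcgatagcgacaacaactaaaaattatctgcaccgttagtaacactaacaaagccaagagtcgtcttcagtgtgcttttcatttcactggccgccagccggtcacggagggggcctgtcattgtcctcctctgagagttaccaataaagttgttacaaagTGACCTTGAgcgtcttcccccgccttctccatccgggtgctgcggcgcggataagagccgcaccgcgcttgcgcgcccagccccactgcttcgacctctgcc
Sdhb: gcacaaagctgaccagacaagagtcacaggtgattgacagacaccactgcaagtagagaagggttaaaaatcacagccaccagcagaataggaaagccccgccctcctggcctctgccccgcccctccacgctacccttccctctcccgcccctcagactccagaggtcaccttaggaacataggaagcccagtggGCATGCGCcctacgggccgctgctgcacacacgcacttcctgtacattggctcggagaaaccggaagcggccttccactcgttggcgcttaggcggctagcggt
Cox7a2l: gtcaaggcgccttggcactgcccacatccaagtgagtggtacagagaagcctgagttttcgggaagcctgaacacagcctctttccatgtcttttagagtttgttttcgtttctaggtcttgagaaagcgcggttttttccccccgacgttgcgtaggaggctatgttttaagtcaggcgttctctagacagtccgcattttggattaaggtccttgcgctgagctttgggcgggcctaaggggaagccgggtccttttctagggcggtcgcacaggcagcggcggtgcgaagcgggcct

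Motifs were counted over both strands in the first listed window of each gene. GCGCATGC lay in 10 of the 65 windows (15.4%) and in 2.80% of the 27025 windows so taken over all genes. The YY1 motif AAGATGGC also lay in 10 (15.4%), against 2.88% of all. The ETS motif CCGGAAGT lay in 5 (7.69%, against 4%) and TCAAGGTCA in 2 (3.08%, against 0.407%). A match describes letters and is not a measured site.

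Values are TPM, which are transcript shares scaled to the same sum in each library, and read counts and depth are unknown. The libraries held between 10732 and 34211 gene names above 0. A summed list of 16 T cell identity genes such as Cd3e and Cd8a ranged from 2430.0 to 15837 TPM, and none of its genes was at 0 in any library. It was under 0.5 of the median library in tumor replicate 4, skin replicate 4 and liver replicates 2, 3 and 4, called the 5 low-identity libraries below. In liver, hepatocyte markers summed to 14672 ± 15178 TPM and erythroid markers to 34559 ± 39492 TPM (SD, n = 4, as for all ± values on levels below). In tumor, erythroid markers reached 6541 ± 4152 TPM and melanocyte and melanoma markers 506 ± 240.3 TPM, and in skin keratinocyte markers reached 1658 ± 1395 TPM. Melanocyte and melanoma markers were also at 361 TPM in liver replicate 4 and 204 TPM in skin replicate 4. B cell markers ran from 3340 to 28290 TPM in spleen, from 1004 to 48843 TPM in lung and from 1072 to 10390 TPM in lymph node memory cells, against at most 1043 TPM in naive, day 12 and tumor libraries. They ran from 2510 to 8143 TPM in liver and from 239 to 5558 TPM in skin. Myeloid markers ran from 1904 to 14995 TPM in liver. They reached 7737 TPM in spleen replicate 4, 9309 and 11527 TPM in lung replicates 4 and 3, and 5307 TPM in skin replicate 3. Lung replicate 3 also held erythroid (23703 TPM), hepatocyte (12232 TPM) and lung epithelium markers (3260 TPM). Liver hepatocytes and other cells also express the subunit genes, and what part they had in the results was not tested. In bulk samples, fewer cells of a type and less RNA per cell cannot be told apart.

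All 76 genes passed the filter of at least 1 TPM in 4 libraries. Their mean levels over all libraries ran from 6.85 TPM for Atp5s to 888 TPM for Atp5b, the catalytic beta subunit of ATP synthase. Within complex I the highest means were those of Ndufa3, an accessory subunit, at 647 TPM and Ndufa4 at 611 TPM, and the lowest was that of Ndufa11, also accessory, at 43.0 TPM. Complex II was led by Sdhb, its iron-sulfur subunit, at 269 TPM, with the membrane anchors Sdhd at 143 TPM and Sdhc at 102 TPM. Complex III ran from 104 TPM for the core protein Uqcrc2 to 591 TPM for the small subunit Uqcr10, followed by Uqcrq at 458 TPM. In complex IV, Cox6a1 (883 TPM) and Cox6c (677 TPM) were highest and Cox7a2l (121 TPM) was lowest. In complex V, Atp5h, a stalk subunit, followed Atp5b at 753 TPM. Ndufa10, Atp5s and Atp5sl were listed at 0 in liver replicate 2, and Atp5s also in spleen replicate 2.

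Summed over the 76 genes, the mean transcript share was highest in day 12 lymph node cells and lowest in naive cells. The sum was 19868 ± 1892 TPM in naive cells, 33087 ± 2837 TPM in the day 12 lymph node and 23559 ± 3149 TPM in lymph node memory cells. It was 26992 ± 5893 TPM in spleen, 24281 ± 3536 TPM in lung, 24037 ± 9560.1 TPM in liver, 23357 ± 5423 TPM in tumor and 20607 ± 6052 TPM in skin. The day 12 libraries, at 30261, 31058, 35149 and 35878 TPM, all lay above the naive libraries, at 22199, 18487, 18178 and 20607 TPM. They overlapped spleen (up to 32299 TPM), tumor (up to 31168 TPM) and liver (up to 36656 TPM), and the groups between naive and day 12 did not separate from each other. The naive range overlapped that of every group except day 12. Skin replicate 4 (13103 TPM) and liver replicate 4 (14189 TPM) lay below every naive library. Replicate 4 had the lowest sum in each of the 6 groups other than naive and day 12 cells, from 13103 TPM in skin to 19192 TPM in lymph node memory cells. The labels do not say whether samples with the same number share an animal or a day.

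**Figure D1:**
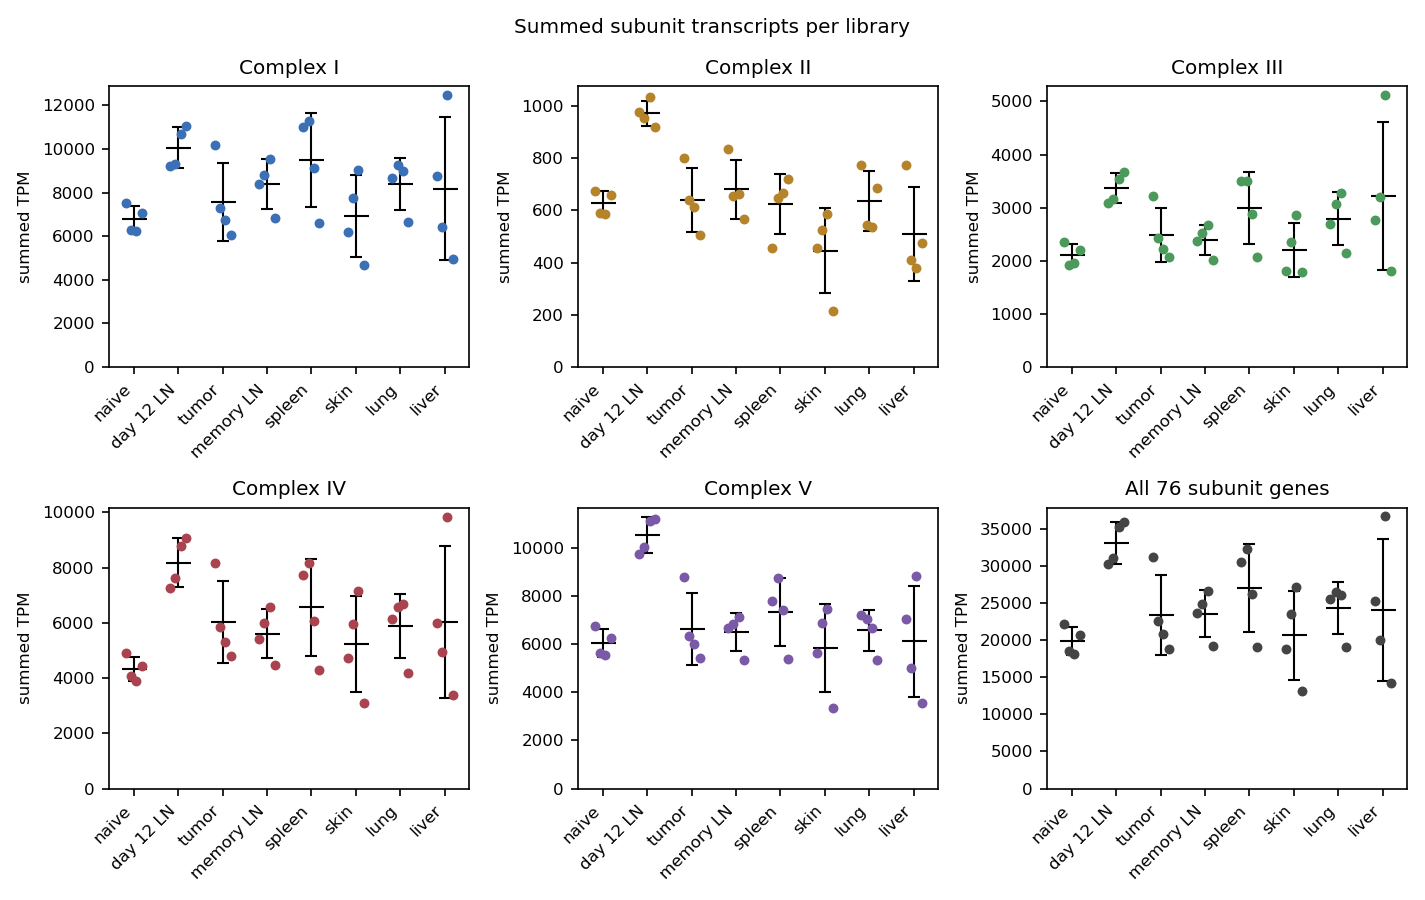
Summed TPM of the subunit genes of each complex, and of all 76 genes, in each library (points) by group, with the group mean and SD as bars; the y axes start at 0 and differ between panels. The 4 day 12 libraries lie between 30261 and 35878 TPM for all genes and above the 4 naive libraries in every panel, while the spleen, skin, tumor and liver libraries spread widely.

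Complexes II and V were those whose day 12 libraries lay above all 28 other libraries. The sum of complex II was 979, 955, 1036 and 919 TPM on day 12, and the highest other library was at 837 TPM, in lymph node memory cells. Skin had the lowest mean of complex II, 445 ± 163 TPM, with libraries at 456, 525, 585 and 214 TPM. The lowest of these is replicate 4, a low-identity library. Liver followed at 510 ± 181 TPM, and liver replicates 3 and 2 were at 378 and 412 TPM, so the 2 groups overlapped. For complexes I, III and IV the day 12 range overlapped that of spleen or liver. Complex V reached 10522 ± 748 TPM on day 12, with a lowest library of 9734 TPM, and the highest libraries elsewhere were in liver (8832 TPM), tumor (8794 TPM) and spleen (8745 TPM).

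In a moderated F test over the 7 group differences (limma with Benjamini-Hochberg adjustment over 19738 genes), 27 of the 76 genes varied among groups at an adjusted p under 0.05. Over all genes tested the share was 46.9%, which is above that of the subunit genes. Called were 9 of 36 in complex I, 3 of 4 in complex II, 4 of 8 in complex III, 3 of 11 in complex IV and 8 of 17 in complex V. The count was 72 with a weight for each group (all genes: 76.7%) and 45 without the 5 low-identity libraries (all genes: 49%). It was 16 without day 12 replicate 3 (all genes: 41.4%) and 17 without day 12 replicate 4 (42.1%). The residual SD of the subunit genes was 0.15 on the log2 scale in naive and in day 12 cells and 0.92 in liver. The fit used here shares 1 spread per gene over all groups.

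The highest group mean lay on day 12 for 48 of the 76 genes and in spleen for 16. The lowest lay in naive cells for 31, in skin for 17 and in liver for 16. For 15 genes, every day 12 library was above all 28 other libraries, against 4.41% of all genes tested. They include the catalytic and stalk subunits of ATP synthase Atp5a1, Atp5b, Atp5c1, Atp5d and Atp5f1 with the ring subunit Atp5g3. They also include Ndufv2 of the complex I core, the accessory Ndufa9 and Ndufb5, Sdhb and Sdhd of complex II, and Uqcrc1, Uqcrc2 and the Rieske protein Uqcrfs1 of complex III. None of the 11 complex IV genes was among the 15. A single gene, Cox7a2l, had every naive library above all others, against 2.45% of all genes tested.

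Genes with a small F test p in each complex show what these patterns look like library by library. In complex I, Ndufv2 was at 197, 177, 168 and 190.0 TPM in naive cells and 279, 288, 296 and 266 TPM on day 12, and at 92.1 to 154 TPM in skin (F test adjusted p = 0.00437, limma). Its group mean was thus highest on day 12 and lowest in skin. The skin range overlapped those of tumor (126 to 210 TPM), lymph node memory cells (144 to 184 TPM) and spleen (134 to 190 TPM). It also overlapped those of lung (127 to 168 TPM) and liver (98.4 to 173 TPM).

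In complex II, Sdhd was at 150.3, 134, 129.9 and 157 TPM in naive cells, 256, 249, 275 and 227 TPM on day 12 and 80.1, 110.5, 130.3 and 34.8 TPM in skin (F test adjusted p = 0.00882, limma). Sdhb had an adjusted p of 0.00197 and the same high and low groups. In complex III, Uqcrc2 was at 139, 121, 122 and 137 TPM in naive cells and 163, 163, 164 and 143 TPM on day 12, a smaller gap than for Sdhd, and at 62.3 to 109.6 TPM in tumor and 42.0 to 81.7 TPM in skin (adjusted p = 0.0138). The adjusted p was 0.0204 for Uqcrfs1, 0.00906 for Cox5a, 0.000234 for Cox7a2l and 0.00148 for Atp5a1, and it was smallest for Atp5g3, at 9.18e-06. Atp5b, the most abundant of the 76, was at 1015, 881, 859 and 935 TPM in naive cells and 1474, 1496, 1603 and 1449.8 TPM on day 12, and its lowest library was skin replicate 4, at 346 TPM.

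**Figure D2:**
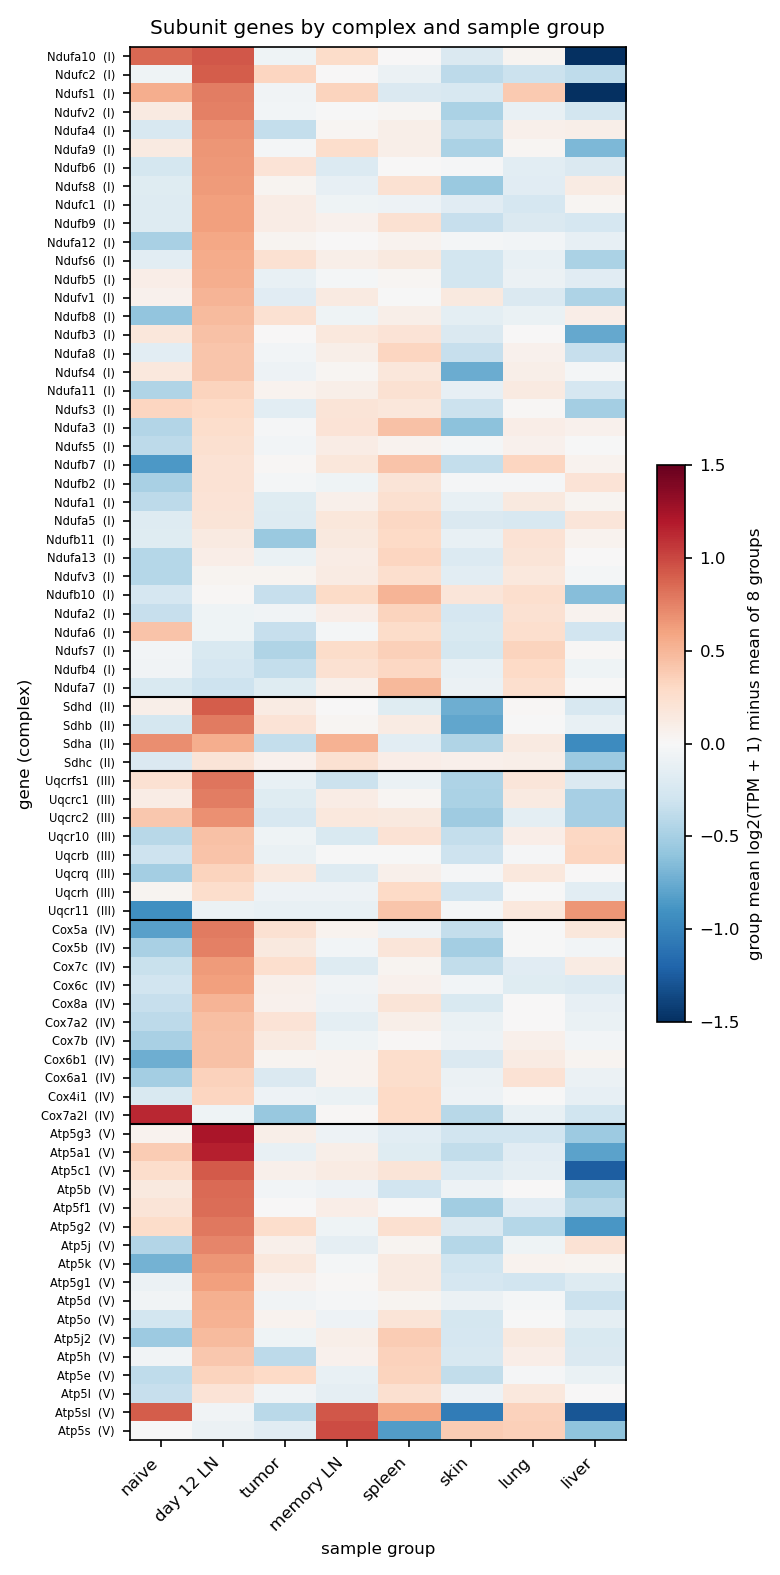
Group mean log2(TPM + 1) of 75 of the 76 genes minus the mean of its 8 group means, one row per gene in order of complex, one column per group; red is above and blue below the gene's own mean, with the color scale limited to 1.5 in either direction. The day 12 column is red for most rows, and the row of Cox7a2l is red in naive cells.

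Day 12 cells of the tumor-draining lymph node were compared with naive cells. The naive cells came from the spleen, so organ and stage cannot be told apart in this comparison. Of the 76 genes, 17 rose and 1 fell; over all genes tested, 5.95% rose and 5.14% fell. The change was positive for 67 and negative for 9. The median log2 change was 0.66 for the subunit genes and -0.19 for all genes tested. Every day 12 library was above every naive library for 61 of the 76 genes, against 19.5% of all genes. The reverse held for 3 (Ndufa6, Cox7a2l and Atp5sl), against 31.7% of all genes. The subunit genes are highly expressed: their median log2 level lay above that of all tested genes by 5.45 ± 0.233 in naive and 6.43 ± 0.207 in day 12 cells. What part level had in the gap to all genes was not tested. The 17 rises ran from 0.82 to 1.59 on the log2(TPM + 1) scale, with adjusted p from 0.000281 to 0.0473 (limma, Benjamini-Hochberg). With these 2 groups fitted alone, 62 rose and 3 fell, but 72.5% of all genes were then called.

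Complex IV had the most calls: 7 of its 11 genes rose, 1 fell and its median change was 0.90. Cox5a, a matrix-side subunit of cytochrome c oxidase, stood at 343, 291, 275 and 334 TPM in naive libraries and at 851, 902, 1029 and 969.9 TPM on day 12. The groups did not overlap and the log2 change was 1.59 ± 0.32 (SE, adjusted p = 0.000637). Cox5b, a zinc-binding subunit beside it, went from 348 ± 40.7 to 829 ± 89.0 TPM, a change of 1.25 ± 0.29 (adjusted p = 0.00341). Cox6b1, Cox7c, Cox7b, Cox6c and Cox7a2 rose as well, by 1.16 ± 0.35 in Cox6b1 to 0.84 ± 0.26 in Cox7a2. Cox4i1, Cox6a1 and Cox8a had positive changes that did not pass the test, though every day 12 library was above every naive library for each.

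Cox7a2l went the other way. Its naive libraries were at 279, 239, 212 and 259 TPM and its day 12 libraries at 97.8, 105, 119 and 107 TPM, with no overlap. The log2 change was -1.19 ± 0.27 (adjusted p = 0.00239). C57BL/6 mice, the strain of all samples, are known to carry a short form of the protein. The values here count its RNA only and do not show what the protein does in these cells.

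**Figure D3:**
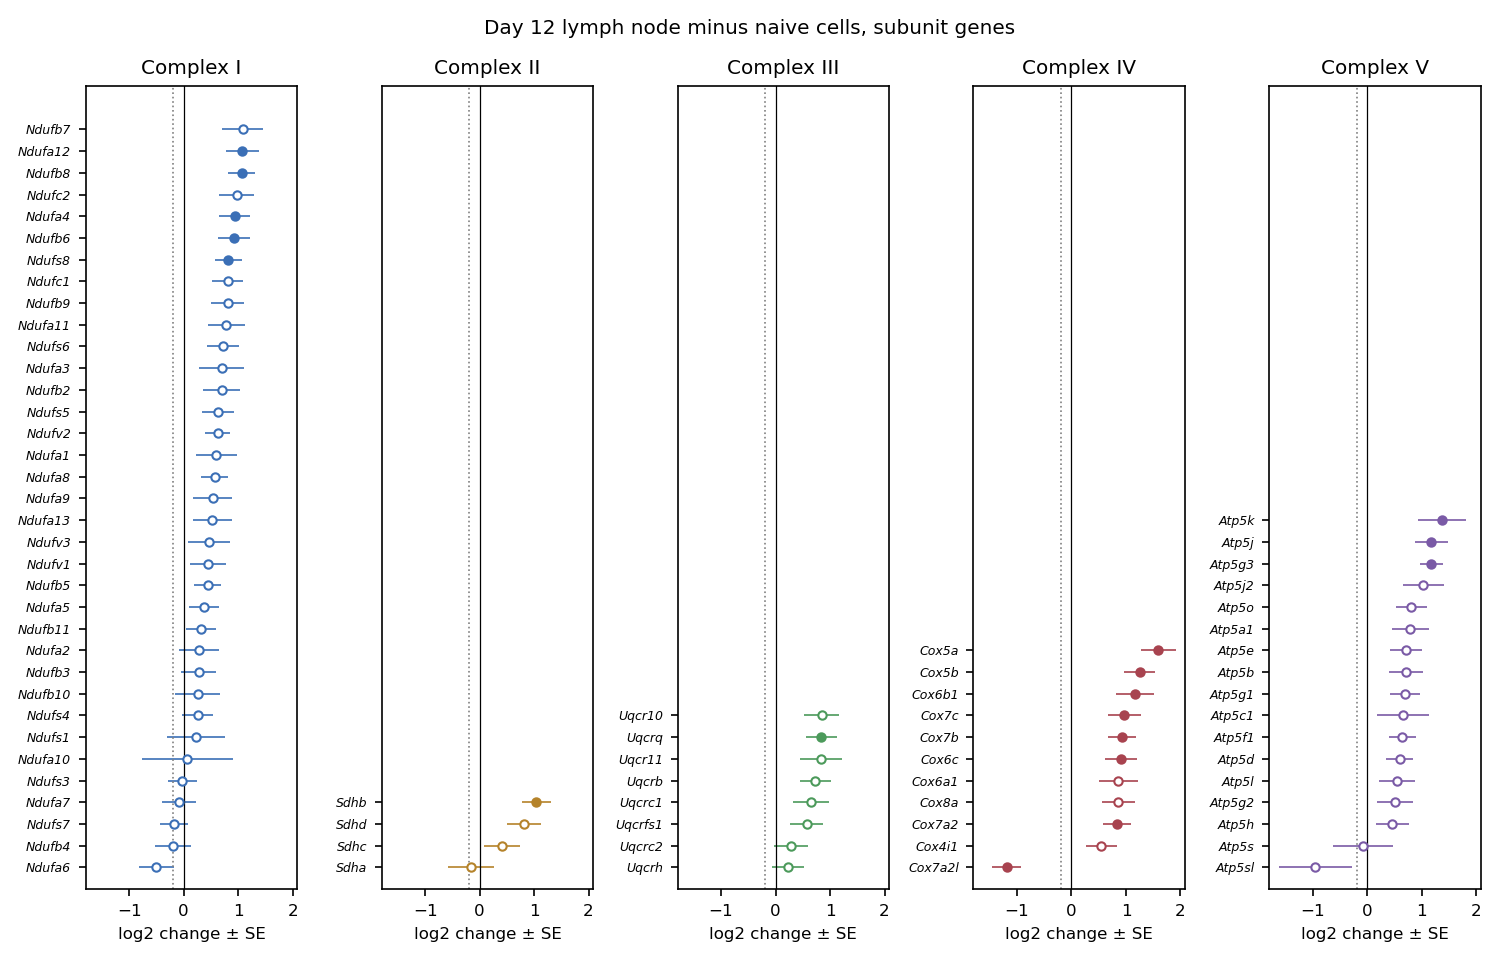
Log2 change of 75 of the 76 subunit genes from naive to day 12 lymph node cells (x axis, on the log2(TPM + 1) scale) with its SE from the fit, by complex; filled points passed an adjusted p of 0.05, the solid line marks no change and the dotted line the median of all genes tested (-0.19). Most points lie right of both lines, and Cox7a2l at -1.19 is the filled point on the left.

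Of the 17 complex V names 3 rose. Atp5g3, 1 of 3 genes for the proton-carrying c ring, stood at 561, 467, 438 and 518 TPM in naive cells and at 1042, 1079, 1198 and 1150.3 TPM on day 12 (1.17 ± 0.22, adjusted p = 0.000281). Atp5j, a coupling factor of the stalk, rose by 1.17 ± 0.31 (adjusted p = 0.00972), from 518 ± 44.8 to 1170.3 ± 107 TPM. Atp5k, the e subunit of the membrane part, rose by 1.37 ± 0.44 (adjusted p = 0.0375), and its call was lost when any 1 of the 8 libraries was left out. The catalytic subunits moved in the same direction without passing the limma test. Atp5a1 changed by 0.79 ± 0.34 (adjusted p = 0.146) and Atp5b by 0.71 ± 0.31 (adjusted p = 0.152). Neither overlapped between the groups. Atp5a1 was at 358 to 437 TPM in naive and 655 to 707 TPM in day 12 libraries, and Atp5b at 859 to 1015 and 1450 to 1603 TPM. Their SE rests on 1 spread per gene shared over all groups. The residual SD of the subunit genes was 0.15 in naive and in day 12 cells and 0.92 in liver.

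In complex II Sdhb rose, from 231, 199, 194 and 231 TPM to 431, 415, 475 and 438 TPM (1.04 ± 0.26, adjusted p = 0.00683). Its partner Sdha, the flavoprotein that oxidizes succinate, stood at 201, 185, 175 and 183 TPM in naive cells and at 181, 179, 166 and 143 TPM on day 12, which overlap (-0.16 ± 0.42, adjusted p = 0.924). In complex III 1 of 8 genes rose, Uqcrq (0.84 ± 0.28, adjusted p = 0.0473), and all 8 had a positive change. In complex I 5 of 36 rose: the accessory subunits Ndufa12 (1.07 ± 0.30), Ndufb8 (1.07 ± 0.24) and Ndufb6 (0.92 ± 0.29), the core iron-sulfur subunit Ndufs8 (0.82 ± 0.25), and Ndufa4 (0.93 ± 0.29), counted here by its name. Ndufa6 was lower in every day 12 library (161 to 201 TPM) than in every naive library (227 to 279 TPM), but its change of -0.50 ± 0.32 did not pass (adjusted p = 0.39).

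Leaving out any 1 of the 8 naive and day 12 libraries took the count of calls from 18 to between 7 and 12 (all genes: 7.84 to 8.42%). It was 7 without naive replicate 2 or 3 or day 12 replicate 4, 8 without day 12 replicate 3, 9 without naive replicate 4, 10 without day 12 replicate 2, 11 without naive replicate 1 and 12 without day 12 replicate 1. Cox5a, Cox5b, Atp5g3, Atp5j and Cox7a2l kept their calls in each of these fits. Without the 5 low-identity libraries, none of which is naive or day 12, 46 rose and 2 fell, against 23.5% of all genes in either direction. B cell markers, at 934 ± 84.0 TPM in naive and 482 ± 56.0 TPM in day 12 cells, and erythroid markers, at 546 ± 276 and 1.31 ± 0.763 TPM, were lower in the day 12 libraries. Their part in the result was not tested.

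The 3 c ring genes Atp5g1, Atp5g2 and Atp5g3 encode the same mature protein with different import sequences. Their share of the summed c ring RNA differed between groups. Atp5g3 held 55.1 ± 1.85% in naive cells, 63.8 ± 1.28% on day 12, 53.8 ± 0.401% in tumor and 52.8 ± 1.35% in lymph node memory cells. The lowest day 12 library was at 62.0%, and 1 other library reached it, in skin at 62.3%. Atp5g1 held 28.0 ± 0.932% on day 12 and 40.0 ± 1.43% in spleen. In TPM, Atp5g1 averaged 303 ± 27.5 in naive and 492 ± 50.8 in day 12 cells, and Atp5g2 101 ± 7.43 and 145 ± 17.9. Neither of these changes passed the test.

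The ratio of Cox7a2l to Cox7a2 separated naive cells from the rest. It was 1.21 ± 0.053 in naive cells, with a lowest library of 1.15, and the highest library of any other group was 0.775, in spleen. It was lowest in tumor, 0.242 ± 0.0165, and on day 12, 0.294 ± 0.0191. In the lymph node memory cells it was 0.473 ± 0.0549, in skin 0.34 ± 0.053, in lung 0.41 ± 0.158 and in liver 0.383 ± 0.134. Ratios are given as a description. The sources used here do not say how reads shared by near-identical genes or pseudogene copies were counted.

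**Figure D4:**
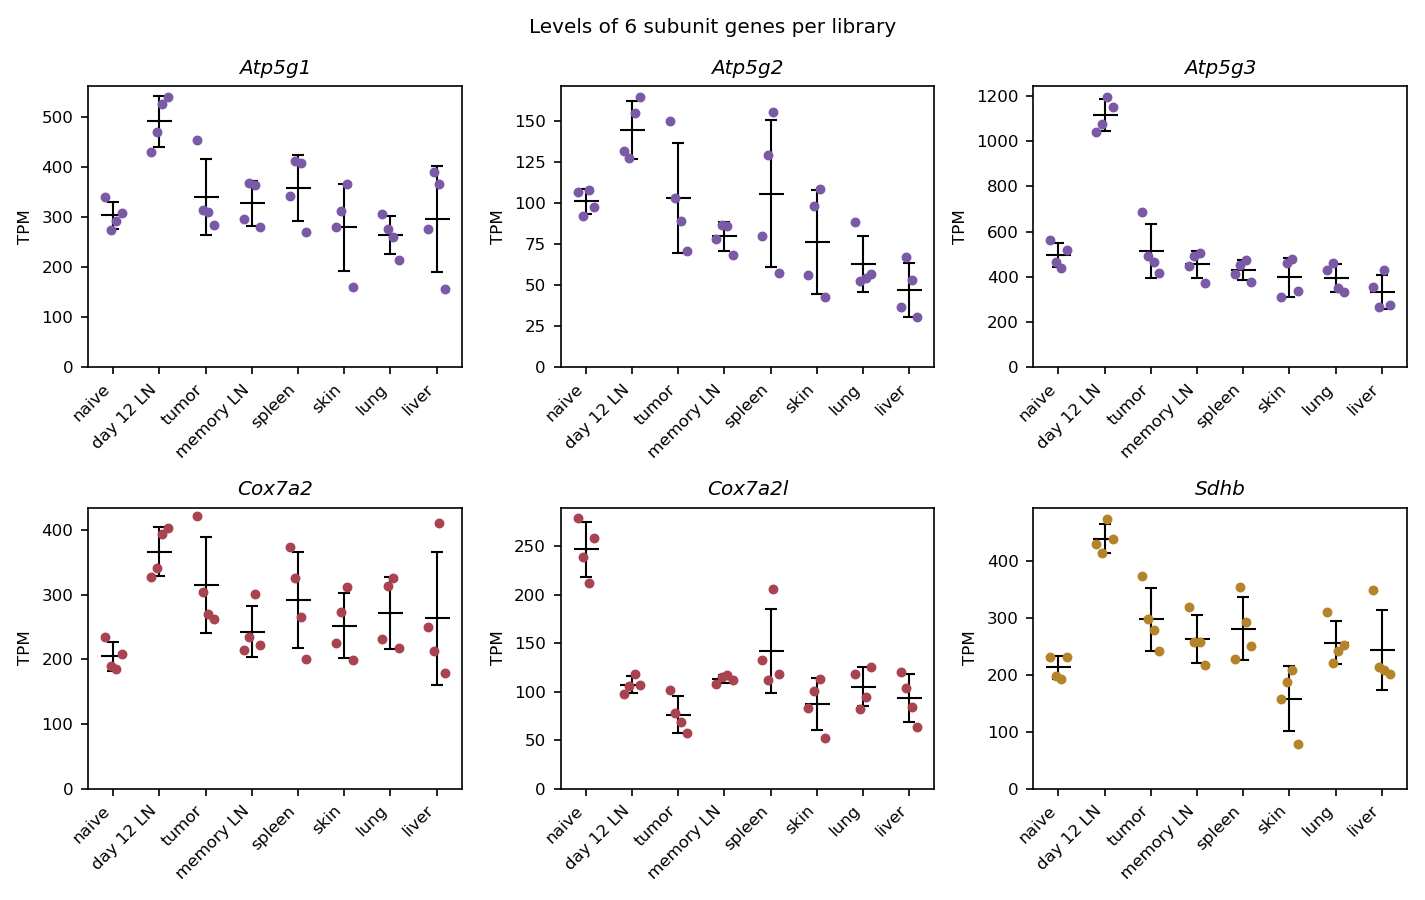
TPM of the c ring genes Atp5g1, Atp5g2 and Atp5g3, of Cox7a2 and Cox7a2l, and of Sdhb in each library (points) by group, with group means and SD as bars and y axes that start at 0 and differ between panels. Atp5g3 is between 1042 and 1198 TPM on day 12 and at most 688 TPM in all other libraries, while Cox7a2l is highest in naive cells.

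Lymph node memory cells were compared with the day 12 cells of the same kind of organ, so the day 12 libraries enter both this and the preceding comparison. B cell markers were at 1072, 3328, 1574 and 10390 TPM in the memory libraries and at 406 to 524 TPM on day 12. Myeloid markers were at 363 to 858 and at 186 to 226 TPM, so neither list overlapped between the groups, and their part in the differences was not tested. Of the 76 genes 4 fell and none rose, while 2.99% of all genes fell and 4.42% rose. The median change was -0.46 for the subunit genes and 0.26 for all genes, and every memory library lay below every day 12 library for 44 genes (11.2% of all genes). Atp5g3 was at 449, 491, 506 and 372 TPM in memory cells, each below 1042 TPM, the lowest day 12 library (-1.30 ± 0.22, adjusted p = 0.000207). Uqcrfs1, the Rieske iron-sulfur protein that takes electrons from ubiquinol, was at 174, 187, 188 and 164 TPM on day 12 and at 86.7, 82.8, 83.7 and 72.2 TPM in memory cells (-1.12 ± 0.30, adjusted p = 0.0181). Atp5a1, the alpha subunit of ATP synthase, was at 655, 679, 707 and 660.3 TPM and at 399, 313, 307 and 270.2 TPM (-1.08 ± 0.34, adjusted p = 0.0457). Ndufv2, in the NADH-oxidizing tip of complex I, changed by -0.77 ± 0.23 (adjusted p = 0.0385).

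None of the 4 genes had overlapping groups, yet only Atp5g3 kept its call without each library in turn. The calls of Atp5a1 and Ndufv2 were lost in all 8 such fits, and that of Uqcrfs1 without day 12 replicate 2 or 3. The count was 1 without day 12 replicate 2 or 3 and 2 without any other of the 8 (all genes: 4.14 to 6.44%). Fitted alone, the 2 groups gave 43 lower and 5 higher, but 51.8% of all genes were then called. Without the 5 low-identity libraries 28 fell and 2 rose, beside 19.9% of all genes in either direction. Against naive cells of the spleen, memory cells had a median change of 0.24 (all genes 0.06). A single gene, Cox7a2l, fell, while 1.9% of all genes fell and 4.61% rose. It was at 108, 115, 118 and 112 TPM in memory cells against 279, 239, 212 and 259 TPM in naive cells (-1.11 ± 0.27, adjusted p = 0.00733). Quantile normalization gave 3 higher and 2 lower genes there (all genes: 7.14%).

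Tumor-infiltrating cells were compared with the same day 12 libraries. In tumor 5 of the 76 genes fell and none rose, against 2.42% and 4.55% of all genes. The change was negative for 73, with a median of -0.50 (all genes 0.03), and every tumor library lay below every day 12 library for 24 genes (22.2% of all genes). Atp5a1 was at 349.7, 274, 275 and 230.1 TPM in tumor, all below the day 12 libraries (-1.27 ± 0.34, adjusted p = 0.0176). Atp5g3 was at 688, 492, 463 and 417 TPM (-1.14 ± 0.22, adjusted p = 0.00106), and Ndufa4 at 631, 454, 425 and 339 TPM against 843, 869, 1021 and 1018 TPM on day 12 (-1.05 ± 0.29, adjusted p = 0.0236). Tumor replicate 1 was the highest of its group in each. Atp5f1, the b subunit of the outer stalk (-0.83 ± 0.25), and Ndufv2 (-0.80 ± 0.23) fell by less, with adjusted p of 0.0392 and 0.0305.

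The 13 mRNAs of the mitochondrial genome, which encode the remaining subunits, had the opposite sign in tumor. Their sum was 22370.4 ± 2079 TPM on day 12 and 85492 ± 39169 TPM in tumor, and 4 of 13 rose (4.55% of all genes), with a median change of 1.83. The largest was that of the catalytic cytochrome c oxidase subunit mt-Co1, from 913 ± 122 to 4688 ± 2206 TPM (2.26 ± 0.60, adjusted p = 0.0179), followed by mt-Atp6, mt-Co2 and mt-Atp8. The nuclear genes made up 23.1 ± 7.90% of the summed nuclear and mitochondrial subunit TPM in tumor and 59.7 ± 0.835% on day 12, with no overlap. As TPM are shares of 1 total, a larger mitochondrial share lowers the others, and its part in the lower nuclear values was not tested. Neither was that of erythroid markers, at 3609 to 12466 TPM in tumor libraries.

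The count in tumor was 3 without day 12 replicate 1 or 2, 2 without day 12 replicate 4 or tumor replicate 2 or 3, 1 without day 12 replicate 3 or tumor replicate 4, and 7 without tumor replicate 1, beside 3.86 to 7.99% of all genes in these fits. Atp5g3 kept its call in each, while that of Atp5a1 was lost without day 12 replicate 3 or tumor replicate 4. The call of Ndufa4 was lost in 5 of these 8 fits and those of Atp5f1 and Ndufv2 in 7. Fitted alone, the 2 groups gave 40 genes, all lower, but 51.8% of all genes were then called in either direction.

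Skin was compared with the lymph node memory cells, which the design text places at the same time after surgery. No subunit gene passed with limma, 10 had an unadjusted p under 0.05, and 7.48% of all genes were called. The median change was -0.29, close to that of all genes (-0.25). Without skin replicate 3, 2 genes fell (7.6% of all genes called), and without skin replicate 2, 1 did (6.3%). Against spleen, 2 genes were lower in skin, while 3.34% of all genes fell and 4.33% rose. These were Ndufs4, an accessory subunit of complex I whose loss in mice is a model of Leigh syndrome, and Sdhb. Ndufs4 was at 33.2, 45.5, 49.1 and 24.3 TPM in skin and 84.6, 87.3, 58.1 and 56.8 TPM in spleen (-0.92 ± 0.28, adjusted p = 0.0355). Sdhb was at 158, 188, 208 and 78.4 TPM in skin and 229, 354, 292 and 251 TPM in spleen (-0.90 ± 0.26, adjusted p = 0.0289). All skin libraries were below all spleen libraries for both genes, as for 6 of the 76 in all (5.69% of all genes). B cell markers were at 3340 to 28290 TPM in spleen and at 239 to 5558 TPM in skin, and their part was not tested.

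Skin replicate 4, which had a low T cell identity sum, was the lowest skin library for both. Without it the change of Sdhb was -0.59 (adjusted p = 0.131) and that of Ndufs4 -0.73 (adjusted p = 0.128). Spleen replicate 2 and skin replicate 1 also decided both calls, and no gene passed without any one of these 3 libraries. Spleen replicate 3 decided that of Sdhb and spleen replicate 1 that of Ndufs4, with 1 call left without either. Without spleen replicate 4, the one with the most B cell and myeloid markers, there were 3 calls (7.54% of all genes). Fitted alone, the 2 groups gave no call for any of the 76 genes (3.89% of all), and without the 5 low-identity libraries 3 were lower and 1 higher (13.8% of all).

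Against tumor, Sdhb alone fell in skin (3.54% of all genes fell and 3.79% rose), from 374, 298, 278 and 242 TPM (-0.98 ± 0.26, adjusted p = 0.0161). The call was lost without skin replicate 4 (-0.68, adjusted p = 0.0623) or tumor replicate 1 (-0.87, adjusted p = 0.0699), and 2 genes fell without skin replicate 3.

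No subunit gene differed between lung and spleen with limma, and 1 had an unadjusted p under 0.05. Only 0.111% of all genes were called in that comparison, and the median change was -0.13 for the subunit genes and 0.04 for all. The marker sums of other cells given above spread widely within both groups, and their part in the absence of calls was not tested. Without lung replicate 3 there was also no call among the 76. Liver and spleen differed in many genes: 11.1% of all genes fell and 2.45% rose, with a median of -0.53. Of the 76 genes 3 fell, with a median of -0.32. Atp5c1, the rotating gamma shaft of ATP synthase, was at 328, 18.9, 198 and 191 TPM in liver and 283, 352, 389 and 329.9 TPM in spleen, and liver replicate 2 lay far below the others (-1.42 ± 0.48, adjusted p = 0.0467). Atp5g2 (-1.12 ± 0.33, adjusted p = 0.0255) and the accessory subunit Ndufb3 (-0.97 ± 0.33, adjusted p = 0.0459) were the others.

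The liver and spleen libraries overlapped for all 3 genes. Hepatocyte markers were at 907 to 35924 TPM in liver and 47.2 to 371 TPM in spleen. Myeloid markers were at 1904 to 14995 and 661 to 7737 TPM, and the part of these markers was not tested. Without liver replicate 2 the change of Atp5c1 was -0.54 (adjusted p = 0.235) and that of Ndufb3 -0.47 (adjusted p = 0.217). Both calls were also lost without any 1 of the spleen libraries, and that of Atp5g2 without spleen replicate 2 or 3 or liver replicate 4. The number of calls was 0 without spleen replicate 2 or 3 (10.9 and 8.8% of all genes), 1 without liver replicate 2 (6.06%), 8 without liver replicate 3 (13.9%) and 17 without liver replicate 1 (27.2%). Removal of the 5 low-identity libraries leaves liver replicate 1 alone, which the fit then assumes to vary like the other groups, so that the lack of calls among the 76 genes there (3.04% of all called) bears little on them. Liver replicate 1 had a T cell identity sum of 14094 TPM, and the other 3 between 2430.0 and 3720.5 TPM.

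Genes around the respiratory chain were counted in the same fit. Of 44 assembly factors tested, 2 rose on day 12 over naive cells, a share no larger than the 5.95% of all genes: Cox17, a copper chaperone of complex IV (1.29 ± 0.35, adjusted p = 0.013), and Uqcc2 of complex III (0.81 ± 0.24, adjusted p = 0.0274). The median change of this list was -0.06, beside 0.66 for the subunits. Of 13 tricarboxylic acid cycle genes 12 had a positive change, and 1, fumarase (Fh1), rose by 1.42 ± 0.43 (adjusted p = 0.0293). Of 12 regulators of mitochondrial biogenesis 1 fell (5.14% of all genes), the coactivator Ppargc1b (-1.41 ± 0.37, adjusted p = 0.0107), and 9 had a negative change. None of the 13 mitochondrial genome mRNAs passed in that comparison with limma, none had an unadjusted p under 0.05, and their median was -0.15. None of 6 carriers and other subunits passed either (3 with an unadjusted p under 0.05).

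In lymph node memory cells 1 of the 44, Ttc19 of complex III assembly, rose over day 12 (1.61 ± 0.45, adjusted p = 0.0232), while 4.42% of all genes rose. Against naive cells Lyrm7 fell (-2.01 ± 0.57, adjusted p = 0.0293) and Uqcc2 rose (0.83 ± 0.24, adjusted p = 0.0343). There 1.9% of all genes fell and 4.61% rose, so these counts are near the shares of all genes. In skin 3 of the 44 assembly factors fell against lymph node memory cells (4.31% of all genes), 3 against spleen (3.34%) and 4 against tumor (3.54%). Coa3, which stabilizes newly made mt-Co1, was in all 3 sets and was at 52.6 ± 16.2 TPM in skin, 130.2 ± 21.1 TPM in spleen, 115 ± 7.21 TPM in memory cells and 94.8 ± 24.6 TPM in tumor (adjusted p = 0.000942 against spleen). In liver 14 of 44 fell against spleen (Surf1, Cox18, Coa6 and Ndufaf3 by most), beside 11.1% of all genes, together with the regulators Polrmt and Esrra.

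Among 6 tissue-restricted isoforms tested, Ndufa4l2, a paralog of Ndufa4 known to be induced by hypoxia, was 36.8 ± 23.1 TPM in skin. It was higher there than in lymph node memory cells (0.11 ± 0.131 TPM, 4.68 ± 0.56, adjusted p = 2.48e-06). The same held against spleen (0.485 ± 0.718 TPM, 4.37 ± 0.56, adjusted p = 3.48e-06) and tumor (3.77 ± 2.21 TPM, 2.71 ± 0.56, adjusted p = 0.002). It was listed at 0 in all 4 day 12 libraries, and it and Cox7b2 rose in tumor over day 12. Keratinocyte and fat markers were also highest in skin, at 1658 ± 1395 and 54.8 ± 37.5 TPM, and their part was not tested. Cytochrome c, Cycs, which carries electrons from complex III to IV, was lower in skin (24.1 ± 1.55 TPM) than in tumor (53.3 ± 9.28 TPM, -1.10 ± 0.32, adjusted p = 0.027).

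The gap between genes with long and short transcripts differed across groups. Length was taken from the principal protein-coding transcript of each gene (APPRIS tag in GENCODE M21, the median where several are tagged); which transcripts these cells express was not measured. The mean log2 level of the 25 longest (1142 bases or more) minus that of the 25 shortest (645 bases or fewer) was -0.996 ± 0.0465 in naive cells. It was -1.26 ± 0.184 on day 12, -1.32 ± 0.197 in lymph node memory cells, -1.54 ± 0.0847 in tumor and -1.59 ± 0.24 in skin. In spleen it was -1.695 ± 0.620, in lung -1.51 ± 0.467 and in liver -2.004 ± 0.848. From naive to day 12 cells the median change was 0.73 for the short and 0.57 for the long genes, both positive. From day 12 to tumor it was -0.39 and -0.70. Across the 76 genes, which share libraries and are not independent, length and change correlated at r = -0.33 in the former and -0.38 in the latter comparison. It was also negative for memory against naive (-0.37), skin against memory (-0.395) and liver against spleen (-0.37). The sign was positive for memory against day 12 (0.04), skin against tumor (0.02), skin against spleen (0.12) and lung against spleen (0.33). With the median length over all annotated protein-coding transcripts, which include partial models, the gap was -0.677 ± 0.0353 in naive cells, -1.01 ± 0.147 on day 12 and -1.29 ± 0.0681 in tumor. The sources used here give no measure of RNA quality, and its part was not tested.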

How the data were processed

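Bulk RNA was sequenced from 32 libraries in 8 groups of 4. Reads were aligned with Bowtie to mm10, per the submitters' processing notes; the sources used here do not give its version, the annotation or the counting. The authors deposited natural log values of TPM + 1, as the values themselves show: converted back, all lie within 0.0001 of a multiple of 0.01 TPM, with library sums from 999999.06 to 1000000.8 TPM. Depth and counting error are therefore unknown. 

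TPM + 1 was converted to log2, and the 19738 genes that reached 1 TPM in 4 libraries entered 1 model of the 8 group means in limma 3.58.1 (R 4.3.3), with a variance trend and 24 residual degrees of freedom. A fold change on this scale understates changes of low genes. Each of 9 comparisons and the F test were adjusted by Benjamini-Hochberg over all tested genes and called under 0.05. The fit was run on simulated data with 200 changed genes. The simulation gave each gene 1 spread in all groups, so it cannot tell how the fit does where spread differs between groups, as it does here. Figures used Python 3.11.15 and Matplotlib 3.10.9. Titles share replicate numbers, but deviations of same-numbered samples did not correlate above 0.1 in every pair, so the numbers were not used as pairs. Missing this bar does not show that the samples were unpaired, and a fit with the replicate block is given below.

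The members, lists and tests were chosen with earlier results of these data known. Named are, per complex, the 2 highest and the lowest mean levels and the 2 smallest F test p-values, per comparison up to 5 called genes in each direction, the paralog sets and names that are no subunits. Other genes of the text, such as Sdha, Ndufa6 and the less changed of the called genes on day 12, were named after their values were seen. Alternatives were no filter, a pseudocount of 0.1, only the 2 groups, a replicate block, quantile normalization, weights per group and leaving out each library; leaving out the 5 libraries of low T cell identity was chosen after seeing the data. Promoter windows and gene names are from RefSeq (GRCm38.p6), where all 76 names matched, and transcript lengths from GENCODE M21; the use of principal transcripts was chosen after seeing the data. The values of 1 gene are not reported here, and the figures of single genes leave it out.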

Additional observations from a re-analysis of the deposited data

Results flagged for a closer look

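Of 304 groups of 4 values checked (38 quantities in 8 groups), 8 held 1 library apart from the other 3 by Dixon's criterion, a number to set beside the 1 in 20 that chance gives. The sum over all 76 subunit genes was 19013 TPM in lung replicate 4 and between 25505 and 26497 TPM in the other 3. Atp5a1 was at 109 TPM in skin replicate 4, with the others from 287 to 323 TPM. In liver replicate 1, the liver library with the highest T cell identity sum, Atp5b was at 1027 TPM (others 454 to 541 TPM) and Sdhb at 349 TPM (others 201 to 214 TPM). In lung, Atp5g2 was at 88.5 TPM in replicate 1 (others 52.4 to 56.6 TPM) and Sdhc at 65.0 TPM in replicate 3 (others 117 to 128 TPM). Uqcr10 was at 696 TPM in tumor replicate 1 (others 472 to 509 TPM). Uqcrc2 was at 143 TPM in day 12 replicate 4 (others 163 to 164 TPM), which was still above all libraries of the other groups.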

How the results depend on the processing

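Single calls were followed through the alternatives for up to 5 genes per direction in each comparison. The less changed of the 17 genes that rose on day 12, Sdhb among them, were not followed in that comparison. Of the 22 calls followed, 8 held under all 15 alternatives each: Atp5g3 in 3 comparisons, Cox7a2l in 2, and Atp5j, Cox5a and Cox5b on day 12. Over all 330 alternative fits of these 22 calls, 99 lost the call and 0 reversed. Counts of called subunit genes moved more, and the cause was not tested. With only the 2 groups they were 65 for day 12 against naive, 48 for memory against day 12, 40 for tumor against day 12, 21 for memory against naive, and 0 for skin against spleen, skin against tumor and liver against spleen; of all genes, 72.5, 51.8, 51.8, 28.9, 3.89, 10.8 and 0.505% were then called. With weights per group they were 65, 45, 48, 16, 0, 2 and 0 in the same order, 4 for skin against memory and 72 in the F test, beside 56.7, 38.1, 45.3, 21.8, 5.6, 11.3, 0.932, 13.5 and 76.7% of all genes. Without the 5 low-identity libraries they were 48, 30, 13, 5, 4, 2 and 0, then 1 and 45, beside 23.5, 19.9, 11, 12.1, 13.8, 13.5, 3.04, 11.9 and 49%; liver is then a single library assumed to vary like the other groups. Quantile normalization gave 11 for memory against day 12, 5 for memory against naive, 1 for skin against memory, 1 for skin against spleen, 3 for skin against tumor and 0 for liver against spleen, beside 7.89, 7.14, 7.2, 9.36, 11.6 and 8.01%. It moved the median of all genes from -0.53 to -0.08 in liver, from 0.26 to 0.01 in memory against day 12, from -0.25 to -0.04 in skin against memory and from -0.19 to -0.09 on day 12, and left the signs of the subunit medians as they were. No filter gave 1 for liver against spleen and 2 for memory against day 12 (3.74 and 2.74%), and a pseudocount of 0.1 gave 2 for memory against day 12 and 1 for skin against spleen (4.24 and 6.07%).

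Leaving out 1 library gave 7 to 12 calls for day 12 against naive, 1 to 2 for memory against day 12, 1 to 1 for memory against naive, 1 to 7 for tumor, 0 to 2 for skin against memory, 0 to 3 for skin against spleen, 0 to 2 for skin against tumor, 0 to 17 for liver, 0 to 0 for lung and 16 to 38 in the F test. No label ties samples of the same replicate number to one animal or day. With the replicate block, calls numbered 24 for day 12 against naive, 7 for memory against day 12, 2 for memory against naive and 1 for skin against memory (11.4, 7.81, 6.96 and 7.75% of all genes). Correlations of same-numbered deviations ran from -0.37 to 0.11 for day 12 and naive samples and from -0.26 to 0.47 in the comparisons among lymph node memory cells, spleen, skin, lung and liver. There replicate 4 reached 0.47 for skin and memory, 0.41 for lung and spleen and 0.42 for liver and spleen, and -0.11 for skin and spleen. For skin and tumor, replicate 4 reached 0.44. In none of the 9 comparisons were all 4 correlations over 0.1, and at most 4 of 8 samples correlated best with their own number. Without read counts, the limit that depth sets on low genes such as Atp5s cannot be given.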
